A study of Rattus norvegicus with 14 samples.

Results

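The 36 genes described here code for the machinery that fills, docks, fuses and recycles synaptic vesicles at nerve terminals. They were taken by name from a whole-transcript array table, as every gene whose probe set carries that single symbol in the platform annotation. All 36 were found among the 22093 genes with a single symbol. Of these, 3 genes (Syt1, Syt7 and Unc13a) had more than 1 probe set, and the one with the highest mean over all arrays was used.

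At a nerve terminal, synaptic vesicles are loaded with transmitter, gathered near the active zone, docked and primed. A rise in calcium, sensed by synaptotagmin, then lets the SNARE proteins on the vesicle and the plasma membrane zip together and fuse the vesicle. The spent SNARE complexes are pulled apart by NSF with its adaptors, and the membrane is taken back by endocytosis for another round. In motor cortex most of these terminals belong to glutamatergic pyramidal cells, with a smaller number from inhibitory interneurons.

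The samples were motor cortex of male rats with spinal cord injury (SCI), on 14 arrays. The 7 MSC arrays came from rats that received MSC, and the 7 vehicle arrays from rats that received vehicle, by the femoral vein 24 hours after injury. Daily cyclosporine A, which suppresses immune rejection, went to every rat of both groups, and cortex was taken at day 3 after the infusion. MSC is the submitters' abbreviation. The labels used here give neither the source of the cells nor the rat strain, and no uninjured group was analysed here. Of the labels of MSC replicate 7, the free-text description names vehicle while title, source and treatment name MSC. It was kept as MSC. The labels do not say that each array is a separate rat, so the p-values below rest on sample-to-sample spread that could be partly technical.

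Values are log2 expression values deposited by the authors. The medians of the arrays lay between 5.77 and 5.90, and correlations between arrays over all probe sets between 0.990 and 0.997. All 36 genes were brighter than the array median, the dimmest of them at the 71.2th percentile of genes. In 6 of them the mean was above 16, beyond the usual scanner range. The scale of bright values is thus unsettled, and levels are not compared between genes. Because these are bulk samples, fewer cells of a type and less RNA per cell cannot be told apart. In the tissue check, all 12 neuronal markers were above the array median, and 10 of the 12 had the higher mean in MSC arrays. The mean over the 12 differed by 0.06 ± 0.10 (SE, MSC minus vehicle). Rbfox3, which codes for the neuronal nuclear protein NeuN, averaged 13.97 ± 0.34 in MSC arrays and 13.97 ± 0.18 in vehicle arrays (SD, n = 7 each), and Map2, of dendritic microtubules, 16.03 ± 0.16 in MSC arrays and 16.03 ± 0.09 in vehicle arrays. Markers of neighbouring tissue were high on a few arrays. Ttr, the transthyretin of choroid plexus, averaged 8.71 ± 3.65 in MSC arrays and 9.21 ± 3.55 in vehicle arrays, and the mean of the 6 choroid plexus markers was 9.49 in MSC replicate 4 and 9.35 in vehicle replicate 2 against 5.54 to 6.35 in the others. Over 9 striatal markers, MSC replicate 6 stood at 8.41 and all other arrays between 7.42 and 7.74. Over 6 meningeal markers, MSC replicate 2 stood at 8.48 and vehicle replicate 2 at 8.21, and the others between 7.03 and 7.52.

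The stretches of DNA before the start sites are shown first for 5 of the genes. Whether these stretches bear on the co-variation described further on was not tested. Syn1, Vamp1 and Sh3gl2 are the members whose window holds the whole cAMP response element core, and Sv2b and Syt1 are the pair with the strongest correlation across arrays. Each sequence is the 250 bases before the annotated start of the gene in RefSeq's GRCr8 assembly, read 5′ to 3′ on the gene's strand. The window of Syn1, which codes for synapsin I, lies at chrX:3725495-3725744 on the plus strand, that of Vamp1 at chr4:159698644-159698893 on the plus strand and that of Sh3gl2 at chr5:104699020-104699269 on the plus strand. The windows of Sv2b at chr1:138562259-138562508 and Syt1 at chr7:46244214-46244463 are on the minus strand. Capitals mark the cAMP response element core TGACGTCA and the Sp1 box GGGCGG, which reads CCGCCC on the opposite strand. The Sv2b window holds neither.
Syn1: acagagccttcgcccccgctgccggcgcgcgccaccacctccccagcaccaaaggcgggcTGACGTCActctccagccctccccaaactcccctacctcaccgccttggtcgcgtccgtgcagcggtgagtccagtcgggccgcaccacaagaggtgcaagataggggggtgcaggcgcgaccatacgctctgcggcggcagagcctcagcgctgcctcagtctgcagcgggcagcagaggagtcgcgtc
Vamp1: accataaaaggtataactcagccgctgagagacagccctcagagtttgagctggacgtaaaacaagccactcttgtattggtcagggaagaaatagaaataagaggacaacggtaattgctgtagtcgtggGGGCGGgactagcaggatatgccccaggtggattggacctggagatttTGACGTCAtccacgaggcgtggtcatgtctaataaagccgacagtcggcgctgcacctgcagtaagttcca
Sh3gl2: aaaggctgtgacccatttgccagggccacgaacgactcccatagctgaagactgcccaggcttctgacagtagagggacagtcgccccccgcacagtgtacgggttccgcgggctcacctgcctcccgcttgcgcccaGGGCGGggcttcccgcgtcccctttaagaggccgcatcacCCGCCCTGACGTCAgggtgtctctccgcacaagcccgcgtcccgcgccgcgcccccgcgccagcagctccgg
Sv2b: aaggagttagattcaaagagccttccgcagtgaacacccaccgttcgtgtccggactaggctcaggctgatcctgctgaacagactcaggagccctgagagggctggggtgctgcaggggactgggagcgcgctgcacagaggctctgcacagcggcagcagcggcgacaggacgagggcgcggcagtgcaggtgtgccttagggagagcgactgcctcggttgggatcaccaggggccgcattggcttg
Syt1: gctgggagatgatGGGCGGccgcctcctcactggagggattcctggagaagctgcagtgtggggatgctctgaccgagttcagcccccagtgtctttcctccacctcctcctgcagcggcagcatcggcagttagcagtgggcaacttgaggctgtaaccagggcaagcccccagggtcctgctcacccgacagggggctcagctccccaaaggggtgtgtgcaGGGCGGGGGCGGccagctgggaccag

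A window was at hand for 29 of the 36 members, without Syn3, Syt5, Syt7, Doc2a, Snap25, Rims2 and Snap91. The core TGACGTCA, a palindrome, was present in 3 of the 29 windows (10.3%), against 1.59% of 33469 rat promoter windows of the same length. Its first 5 letters, TGACG, on either strand and with the core counted, were present in 10 windows (34.5%, all windows 18.2%). These belong to Syn1, Rab3a, Syt4, Vamp1, Vamp2, Cplx1, Unc13a, Dnm1, Synj1 and Sh3gl2. The Sp1 box on either strand was present in 20 (69.0%, all windows 30.5%). The right part of the neuron-restrictive silencer element, GGACAGC, was present in the windows of Rab3c, Rph3a, Unc13a and Synj1 (13.8%, all windows 5.3%), and its left part, TTCAGCACC, in none of the 29 (all windows 0.305%). The letters CCAAT were present in 9 windows (31.0%, all windows 34.0%) and TATAAA in none of the 29 (all windows 12.9%). The members' windows had a median GC content of 64.8%, against 51.2% for all windows. The influence of base composition on the motif counts was not tested, and a match is only a run of letters, not a site shown to be bound.

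Between MSC and vehicle arrays, none of the 36 genes differed past the threshold, an adjusted p of 0.05 in limma over 68842 probe sets, and neither did any other probe set (0.0% called). At an unadjusted p of 0.05, limma also called 0 of the 36, while it called 2.77% of all genes, 1.17% as higher and 1.6% as lower in MSC arrays. Among the 13892 genes brighter than the array median those shares were 2.94%, 1.51% and 1.43%. Means were higher in MSC arrays for 25 of the 36 genes (69.4%) and lower for 11. Among all genes 47.6% had the higher mean in MSC arrays, and among the bright genes 52.0%. When arrays were scaled to a common median or quantile normalization was repeated, the split of the 36 was again 25 to 11. The share over all genes was then 57.7% and 57.6%, and over the bright genes 60.9% and 59.9%. The median difference over the 36 genes, MSC minus vehicle, was 0.05 on the log2 scale, beside -0.004 over all genes. Single differences ran between -0.33 for Syt2 and 0.24 for Rab3c.

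The arrays set a limit on what could have been missed. The 95% interval excluded a 1.5-fold difference for 34 of the 36 genes, all but Rab3c and Syt2, and a 1.3-fold difference for 27. Among the 34 are the 6 genes with means above 16. For these the limit holds only on the deposited scale, which is unsettled there. The MSC and vehicle values overlapped for every member, where 0.0362% of all genes and 0.036% of bright genes had groups that did not overlap. The spread within groups was wider than for most genes, with a median SD of 0.214 over the members and 0.132 over all genes. Leaving out 1 array at a time changed the sign of the difference for 12 members, while 24 kept it, 19 with the higher and 5 with the lower mean in MSC arrays. In all, 32 of the 36 differences changed sign or moved by over 1.5 times when some single array was left out. The lean towards MSC was not seen in every set of arrays. Replicates 1 to 5 and replicates 6 and 7 differ in their labelling control spikes, with the dap spike at 7.45 to 8.12 in replicates 6 and 7 and at 8.35 to 9.92 in replicates 1 to 5. The labels name no batch. Within replicates 1 to 5, 25 genes had the higher mean in MSC arrays and the median difference was 0.09. Higher means there made up 47.0% of all genes and 50.6% of bright genes. Within replicates 6 and 7 the count was 13 and the median -0.03, beside 50.3% of all genes and 53.2% of bright genes. Only 14 of the 36 differences had the same sign in both replicate sets. The MSC arrays of the second set were replicate 6, with the highest striatal markers, and replicate 7, whose description names vehicle.

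**Figure D1:**
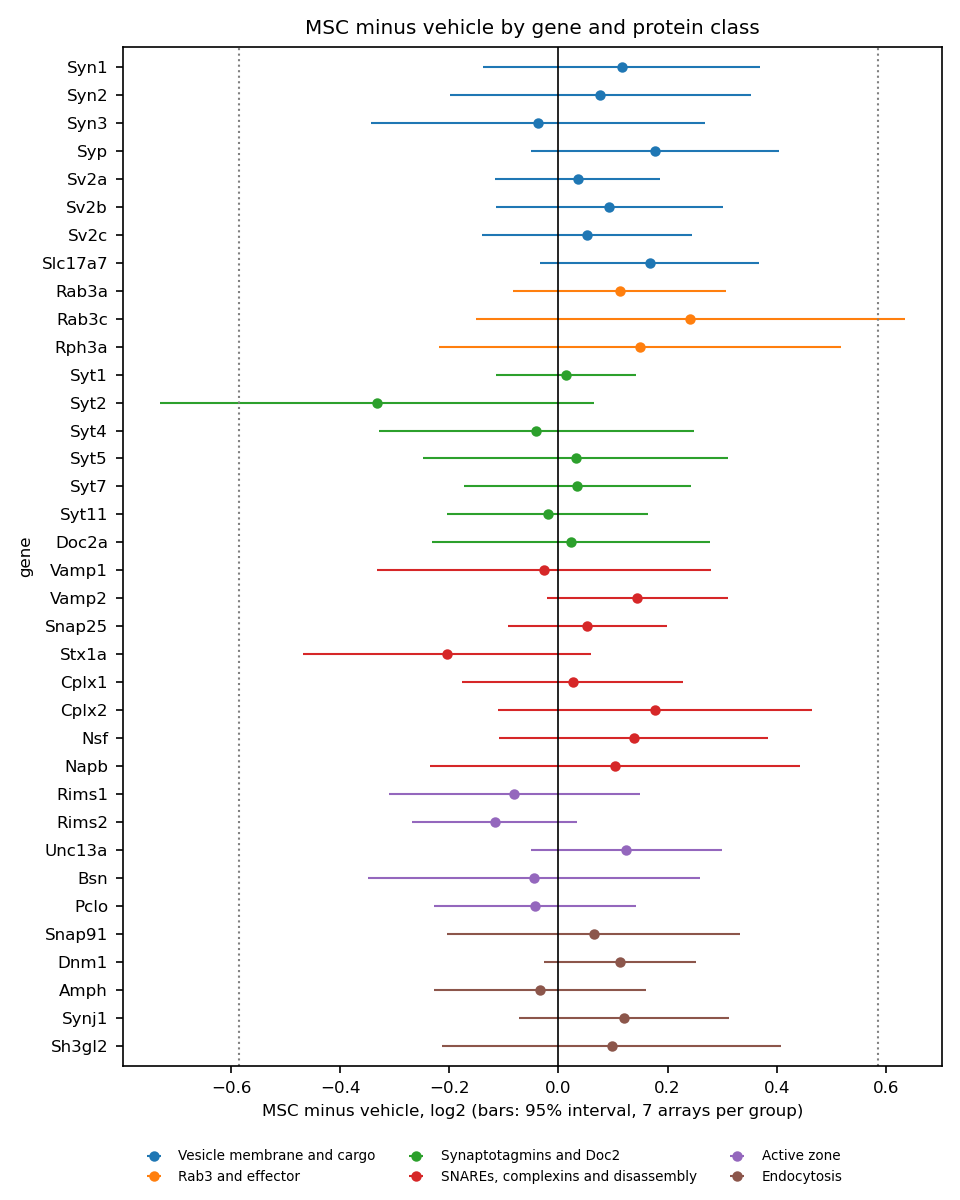
Difference between MSC and vehicle arrays for each of the 36 genes (x axis, MSC minus vehicle, log2), grouped and coloured by protein class, with 95% intervals from limma and 7 arrays per group. Dotted lines mark 1.5-fold in either direction. All intervals include 0, and only those of Rab3c and Syt2 reach a dotted line.

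The vesicle membrane class held 8 members, of which 7 had a higher mean in MSC arrays, with a median difference of 0.08. The class mean per array was 13.79 ± 0.14 in MSC arrays and 13.71 ± 0.15 in vehicle arrays (SD, n = 7 each). Slc17a7 (probe set TC0100001481.rn.1) codes for VGLUT1, the transporter that loads vesicles with glutamate in cortical pyramidal cells. Its lowest, median and highest values were 15.51, 15.84 and 16.005 in MSC arrays and 15.40, 15.68 and 15.96 in vehicle arrays. In MSC arrays 6 of 7 values lay above the vehicle mean, but the ranges overlapped over most of their length. The difference was 0.17 ± 0.09 (SE) with an unadjusted p of 0.0962 and an adjusted p of 0.9999 in limma.

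Syp codes for synaptophysin, the most used marker protein of vesicle membranes. It had 16.14, 16.42 and 16.59 as lowest, median and highest value in MSC arrays and 15.84, 16.20 and 16.55 in vehicle arrays. The lowest MSC values lay near the vehicle median, and the upper ends of the ranges met. The difference was 0.18 ± 0.11 (SE, unadjusted p of 0.117), but 0.27 within replicates 1 to 5 and -0.06 within replicates 6 and 7.

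The synapsins tether vesicles to each other and to actin. Syn1 differed by 0.12 ± 0.12, Syn2 by 0.08 ± 0.13 and Syn3, the member of the class with the lower MSC mean, by -0.04 ± 0.14. The Syn1 difference was 0.04 without MSC replicate 5, and that of Syn2 0.005 without vehicle replicate 3. Syn1 reached its highest value, 16.77, in MSC replicate 5, and only 3 of 7 MSC values lay above the vehicle mean. The SV2 proteins are vesicle glycoproteins that resemble transporters, and SV2A is the binding site of the antiepileptic levetiracetam. Sv2a differed by 0.03 ± 0.07, Sv2b by 0.09 ± 0.10 and Sv2c by 0.05 ± 0.09. The highest Sv2c value, 8.94, was that of MSC replicate 6, the array with the highest striatal markers. Without that array the Sv2c difference was -0.01. What those markers contribute was not tested.

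All 3 members of the Rab3 class had higher means in MSC arrays. The class mean was 13.33 ± 0.21 in MSC arrays and 13.16 ± 0.23 in vehicle arrays. Rab3c (probe set TC0200002872.rn.1), a small GTPase that marks vesicles for docking, had the largest positive difference of the 36. Its lowest, median and highest values were 11.63, 12.27 and 12.85 in MSC arrays and 11.37, 11.90 and 12.52 in vehicle arrays. The values of each group spread over more than 1 log2 unit, wider than the gap between the medians. The difference of 0.24 ± 0.19 had an interval of -0.15 to 0.63 (unadjusted p of 0.211), and was 0.36 within replicates 1 to 5 but -0.04 within replicates 6 and 7. Rab3a, the main isoform of brain vesicles, differed by 0.11 ± 0.09, and by 0.09 and 0.17 within those sets. Rph3a, whose product rabphilin binds active Rab3, differed by 0.15 ± 0.17.

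Among the 6 synaptotagmins and Doc2a, means were higher in MSC arrays for 4 and lower for 3, with a median difference of 0.01. Syt1 codes for the fast calcium sensor of most forebrain synapses. It held 17.39, 17.59 and 17.68 as lowest, median and highest value in MSC arrays and 17.41, 17.55 and 17.70 in vehicle arrays. The groups lay on top of each other, with a difference of 0.01 ± 0.06 and an interval of -0.11 to 0.14, the narrowest of the 36. Syt1 is one of the genes with means above 16, where the scale is unsettled.

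Syt2 (probe set TC1300000319.rn.1) codes for a fast sensor that serves the hindbrain and, in rodent cortex, the terminals of many parvalbumin interneurons. It had the largest difference of all 36 genes in either direction. The lowest, median and highest values were 9.32, 9.63 and 10.47 in MSC arrays and 9.37, 10.10 and 10.52 in vehicle arrays. In MSC arrays 6 of 7 values lay below the vehicle mean, the exception being MSC replicate 5 with the highest value, while vehicle replicate 7, at 9.37, lay among the low MSC arrays. The difference was -0.33 ± 0.19 with an interval of -0.73 to 0.06 (unadjusted p of 0.0949, adjusted p of 0.9999). It was -0.46 within replicates 1 to 5 (unadjusted p of 0.0499) and -0.01 within replicates 6 and 7. Pvalb, the parvalbumin gene itself, which was looked at after its values were seen, averaged 8.81 ± 0.21 in MSC arrays and 9.07 ± 0.18 in vehicle arrays, a difference of -0.26 ± 0.10 (unadjusted p of 0.0176, adjusted p of 0.9999). Of the 6 interneuron markers 4 had the higher mean in MSC arrays, and the list averaged 11.06 ± 0.23 in MSC arrays and 11.03 ± 0.16 in vehicle arrays. The part of these markers in the Syt2 difference was not tested.

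The other sensors differed by little. Syt5, a calcium-binding synaptotagmin, differed by 0.03 ± 0.13, and Syt7, the high-affinity sensor linked to slow and asynchronous release, by 0.03 ± 0.10. Syt4 and Syt11, whose first C2 domain does not bind calcium, differed by -0.04 ± 0.14 and -0.02 ± 0.09. Doc2a, a soluble high-affinity calcium sensor, differed by 0.02 ± 0.12. Syt7 was highest, at 10.53, in MSC replicate 4, and lowest, at 9.82, in MSC replicate 6.

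The SNAREs and the proteins that clamp or disassemble them numbered 8, of which 6 had the higher mean in MSC arrays. The class mean was 14.66 ± 0.15 in MSC arrays and 14.61 ± 0.14 in vehicle arrays. Vamp2 (probe set TC1000000907.rn.1), the vesicle SNARE of most cortical synapses, had the smallest unadjusted p of the 36. It had 14.83, 14.97 and 15.44 as lowest, median and highest value in MSC arrays and 14.78, 14.86 and 14.97 in vehicle arrays. The vehicle values lay within a narrow band, 6 of 7 MSC values lay above the vehicle mean, and MSC replicate 2 stood well above all other arrays. The difference was 0.14 ± 0.08, or 1.11-fold, with an unadjusted p of 0.0824 and an adjusted p of 0.9999. Without MSC replicate 2 it was 0.08, and within replicates 6 and 7 it was -0.01. MSC replicate 2 was also the array with the highest meningeal markers, and deviations of Vamp2 correlated with those of the meningeal list at r of 0.57, or 0.05 without the 2 arrays farthest from the median. The part of those markers in the Vamp2 difference was not tested.

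Stx1a codes for syntaxin 1A, a plasma membrane SNARE. Its lowest, median and highest values were 11.26, 11.99 and 12.14 in MSC arrays and 11.70, 12.11 and 12.22 in vehicle arrays. MSC replicate 4, one of the 2 arrays with high choroid plexus markers, was the lowest of all. Vehicle replicate 2, the other one, stood at 12.20, above the vehicle mean of 12.08. The part of those markers in the Stx1a difference was not tested. The difference was -0.20 ± 0.12 (unadjusted p of 0.12), and -0.10 without MSC replicate 4. Its direction was the same in both replicate sets, -0.25 within replicates 1 to 5 and -0.10 within replicates 6 and 7. Snap25, the second plasma membrane SNARE, differed by 0.05 ± 0.07, with vehicle replicate 3 as its lowest array at 17.81. Without that array the Snap25 difference was 0.00015. Vamp1, the other vesicle SNARE, differed by -0.03 ± 0.14, with a spread of 0.36 in MSC arrays and 0.21 in vehicle arrays (SD).

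Complexins bind assembled SNAREs and hold them ready for calcium. Cplx2 differed by 0.18 ± 0.14, with 0.31 within replicates 1 to 5 and -0.15 within replicates 6 and 7, and Cplx1 by 0.03 ± 0.10. Nsf, the ATPase that takes SNARE complexes apart, differed by 0.14 ± 0.12, and its adaptor Napb (beta-SNAP) by 0.10 ± 0.16.

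**Figure D2:**
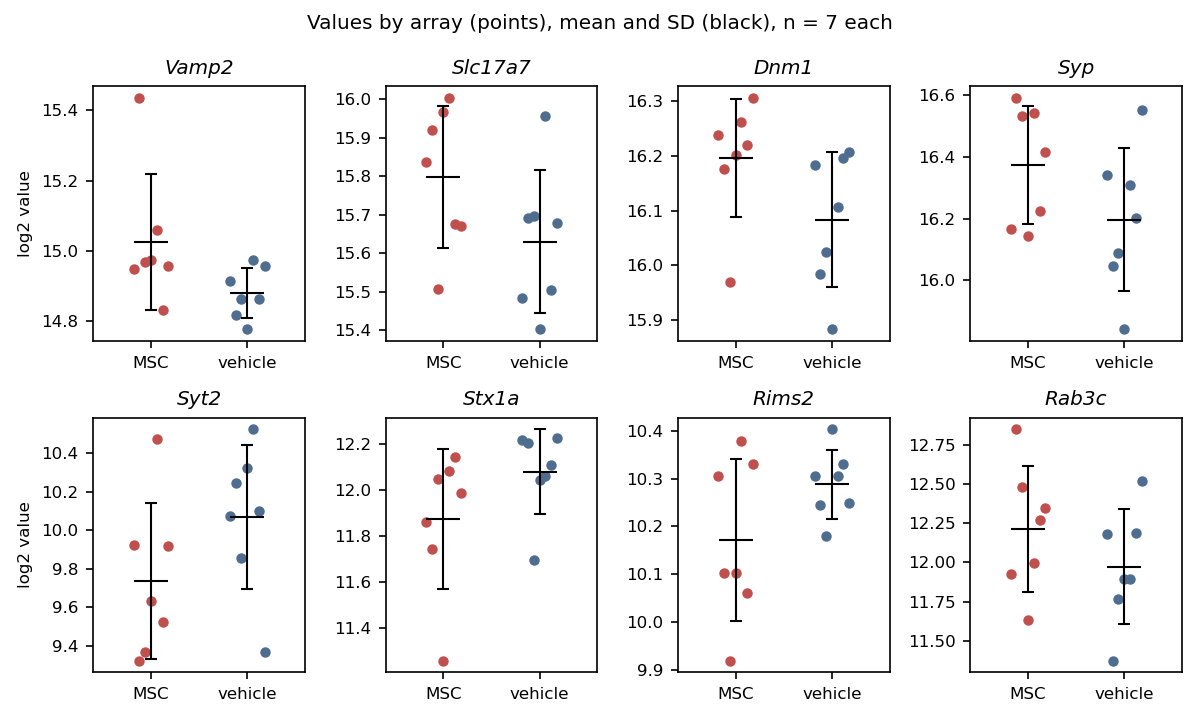
Log2 values of 8 genes by array (points; MSC left, vehicle right) with the mean and SD in black, n = 7 each. The groups overlap in every panel. MSC replicate 2 is the high point of Vamp2 and MSC replicate 5 the high point of Syt2 within the MSC arrays.

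The active zone class was the one in which lower means prevailed, in 4 of 5 members, with a median difference of -0.04. The class mean was 12.28 ± 0.19 in MSC arrays and 12.31 ± 0.10 in vehicle arrays. Rims2, one of the RIM scaffolds that tie vesicles and calcium channels to the release site, had 9.92, 10.10 and 10.38 as lowest, median and highest value in MSC arrays and 10.18, 10.30 and 10.40 in vehicle arrays. Of the MSC values, 4 of 7 lay below the lowest vehicle value, and the upper ends of the ranges met. The difference was -0.12 ± 0.07 (unadjusted p of 0.122), and -0.13 and -0.09 within the replicate sets.

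Rims1, the other RIM scaffold, differed by -0.08 ± 0.11. Bsn and Pclo, which code for the giant scaffolds bassoon and piccolo, both differed by -0.04, with SEs of 0.14 and 0.09. The exception was Unc13a (Munc13-1), the priming factor that opens syntaxin. It had 11.46, 11.58 and 12.02 as lowest, median and highest value in MSC arrays and 11.30, 11.56 and 11.67 in vehicle arrays, and 6 of 7 MSC values lay above the vehicle mean. Its difference was 0.12 ± 0.08 (unadjusted p of 0.149).

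In the endocytosis class 4 of 5 members had the higher mean in MSC arrays. The class mean was 14.50 ± 0.15 in MSC arrays and 14.42 ± 0.16 in vehicle arrays. Dnm1 codes for dynamin 1, the GTPase that pinches vesicles off the membrane. It had 15.97, 16.22 and 16.31 as lowest, median and highest value in MSC arrays and 15.88, 16.11 and 16.21 in vehicle arrays. Apart from MSC replicate 3, all MSC values lay above the vehicle mean. The difference was 0.11 ± 0.07 (unadjusted p of 0.107), and it was positive within both replicate sets, 0.13 and 0.06.

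Synj1, the lipid phosphatase synaptojanin that helps strip clathrin, differed by 0.12 ± 0.09. Sh3gl2 (endophilin A1), which bends the membrane and recruits synaptojanin, differed by 0.10 ± 0.15, and Snap91 (AP180), a clathrin assembly protein, by 0.06 ± 0.13. Amph, the dynamin-binding amphiphysin, differed by -0.03 ± 0.09.

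The 36 genes varied together across arrays. Deviations of each value from the mean of its group were correlated over the 14 arrays. Over the 630 pairs of members the median Pearson r was 0.36 (interquartile range 0.14 to 0.57), and 84.4% of pairs were above 0. Over all pairs of the 13892 bright genes the median was 0.03, with 53.7% above 0. The members' median was 0.38 within the MSC arrays and 0.38 within the vehicle arrays, 0.39 within replicates 1 to 5, and 0.30 without the 2 arrays farthest from the median. With the replicate number as a block, however, it was 0.10, with 351 of the 630 pairs above 0. Over 4631 of the bright genes the median with that block was 0.04. These arrays share a normalization, and the labels do not say that each is a separate rat. The correlations therefore describe these 14 samples, and no p is given.

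Some arrays were high or low for most of the genes. In MSC replicate 5, 33 of 36 genes were above their group mean, and in vehicle replicate 7, 31 were. In MSC replicate 4, 32 were below it, and in vehicle replicate 3, 31 were. The mean over the 36 genes was 13.81 in MSC replicate 5 and 13.44 in MSC replicate 4, and 13.75 in vehicle replicate 7 and 13.39 in vehicle replicate 3. The gap between arrays of 1 group was therefore larger than the gap between the group means, 13.60 ± 0.13 in MSC arrays and 13.56 ± 0.13 in vehicle arrays.

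**Figure D3:**
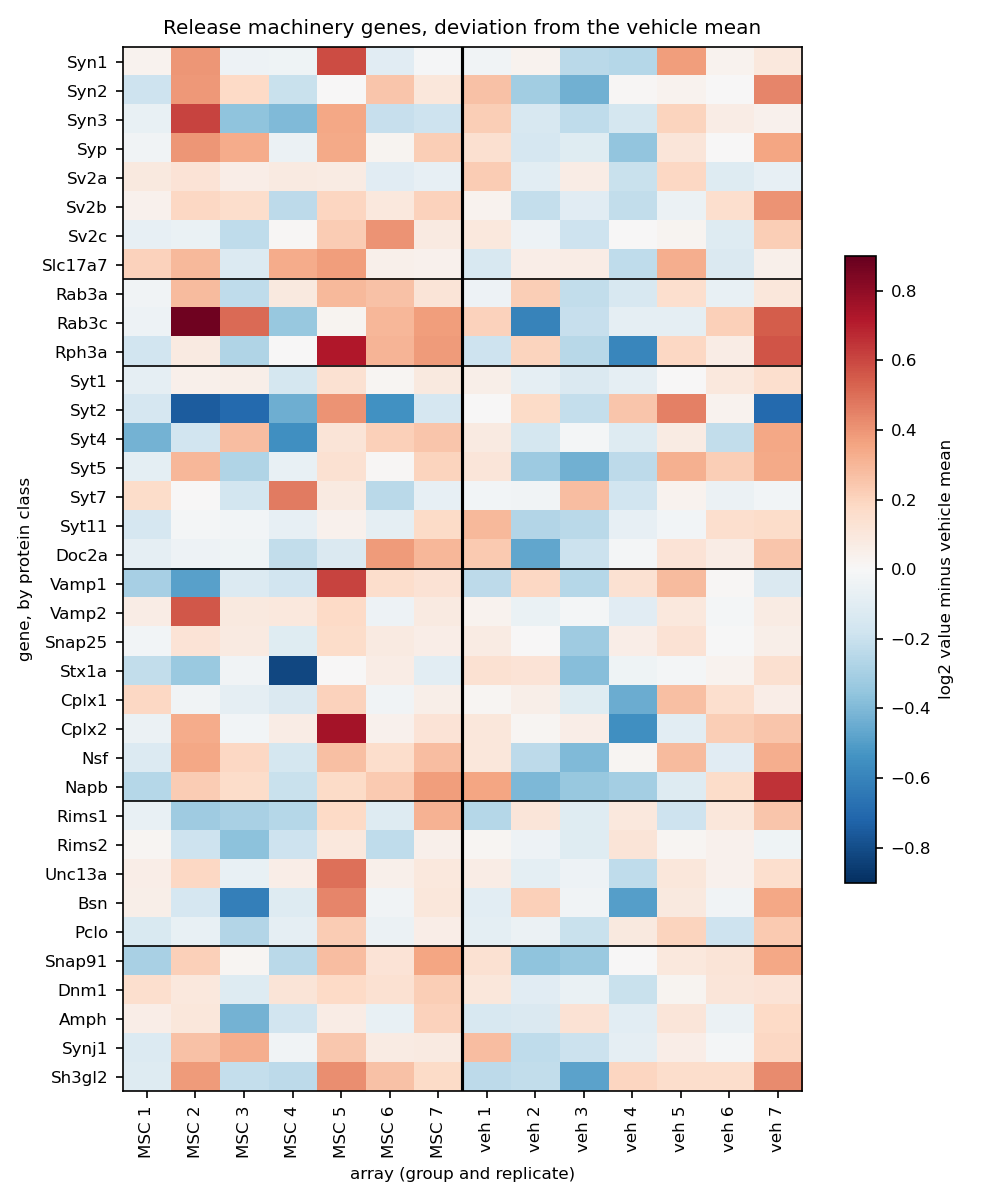
Log2 value minus the vehicle mean for each of the 36 genes (rows, by protein class) on each array (columns, 7 MSC then 7 vehicle), red above and blue below. Whole columns share a colour: MSC replicate 5 and vehicle replicate 7 are mostly red, MSC replicate 4 and vehicle replicate 3 mostly blue.

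The co-variation crossed the protein classes. The median r was 0.40 within classes (100 pairs) and 0.36 between classes (530 pairs). Pairs within the active zone class had a median of 0.54, but 0.79 within MSC arrays, 0.23 within vehicle arrays (3 of 10 pairs below 0) and 0.29 without the 2 arrays farthest from the median. The median was 0.43 for endocytosis (0.51 without those arrays), 0.40 for the vesicle membrane (0.36) and 0.27 for the SNARE class (0.29), so the classes had no fixed order. The synaptotagmins and Doc2a had a median of 0.07, with 11 of 21 pairs above 0 (0.16 without those arrays). The Rab3 class had a median of 0.11 over 3 pairs, 1 of them below 0 (0.39 without those arrays). Class means correlated with each other at r between 0.51 (vesicle membrane and active zone) and 0.88 (Rab3 and endocytosis).

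The closest pair was Sv2b and Syt1, whose upstream windows are printed above, with r of 0.90 (Spearman 0.93), 0.93 within MSC arrays and 0.91 within vehicle arrays. Nsf and Snap91 followed with 0.89, Syt1 and Snap91 with 0.89, Cplx2 and Unc13a with 0.88, Sv2b and Napb with 0.88, and Rph3a and Bsn with 0.88. Of single genes, Syt1 followed the mean of the other 35 most closely, with r of 0.86, then Snap91 with 0.85, Syt5 with 0.84, Unc13a with 0.82 and Nsf with 0.80.

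A few members did not follow the rest. The correlation with the mean of the others was 0.26 for Slc17a7, 0.09 for Sv2a, 0.05 for Syt2 and -0.34 for Syt7, whose Spearman correlation was -0.08. The most negative pair was Syt7 and Stx1a with r of -0.84, which was -0.39 without the 2 arrays farthest from the median (Spearman -0.47 over all 14). The negative pair of Sv2a and Rims1, -0.65, was -0.61 without such arrays. A first principal component held 41.9% of the members' variance within groups, with positive loadings of all members but Syt2 and Syt7, and a second held 21.8%, on which Syt2, Bsn, Vamp1 and Rph3a (loadings 0.46, 0.32, 0.30 and 0.30) stood opposite Rab3c (-0.37). For the bright genes the first component held 22.9%, and the array scores of the 2 first components correlated at 0.84.

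**Figure D4:**
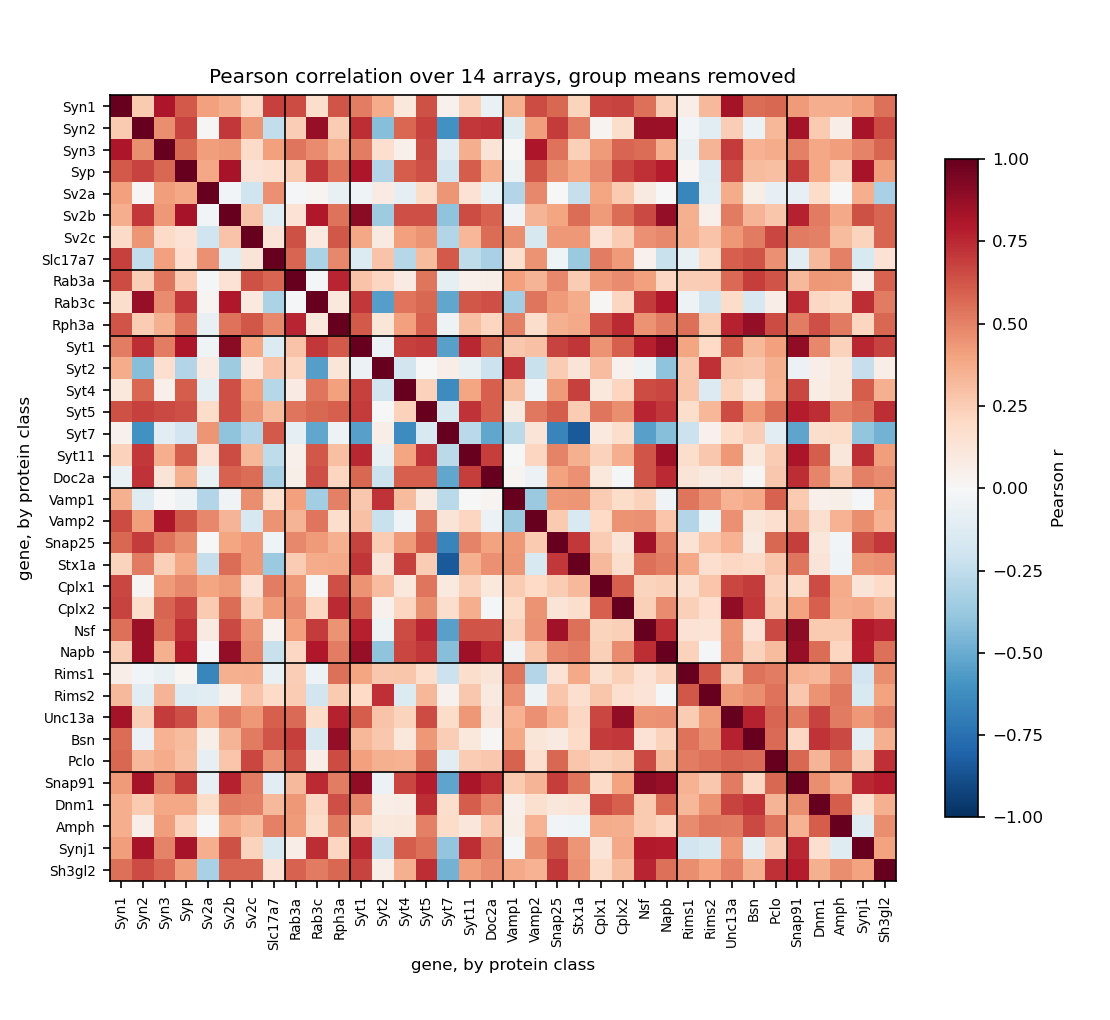
Pearson r over 14 arrays, group means removed, for every pair of the 36 genes on both axes, ordered by protein class (black lines), red positive and blue negative. Red covers 532 of the 630 pairs, without regard to class borders, and Syt7, Syt2 and Sv2a appear as pale or blue bands.

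The mean of the 36 genes followed the neuronal markers. Its deviations correlated with those of the mean of 12 neuronal markers at r of 0.95 (Spearman 0.96), 0.95 within each group, and 0.93 without the 2 arrays farthest from the median. This r was 0.81 with the replicate number as a block. That marker mean was 13.97 ± 0.20 in MSC arrays and 13.91 ± 0.17 in vehicle arrays. With the interneuron markers r was 0.80, with microglia 0.54, with astrocytes 0.35, with oligodendrocytes 0.22, with blood -0.45 and with choroid plexus -0.52. With 5 endothelial markers it was 0.26 over all arrays, but 0.92 within MSC arrays and -0.37 within vehicle arrays. All 5 had the lower mean in MSC arrays, and their mean was 7.86 ± 0.16 in MSC arrays and 8.10 ± 0.16 in vehicle arrays. Gfap, the astrocyte filament, averaged 10.83 ± 0.59 in MSC arrays and 10.72 ± 0.73 in vehicle arrays, Mbp, of myelin, 10.52 ± 0.28 in MSC arrays and 10.64 ± 0.23 in vehicle arrays, and Aif1, of microglia, 6.10 ± 0.06 in MSC arrays and 6.08 ± 0.08 in vehicle arrays. Drd2, the striatal dopamine receptor, averaged 6.83 ± 0.50 in MSC arrays and 6.51 ± 0.19 in vehicle arrays. Of their lists, 6 of 8 astrocyte, 4 of 9 oligodendrocyte, 4 of 8 microglial and 6 of 9 striatal markers had higher MSC means. The means of these lists differed by 0.06 ± 0.10, -0.03 ± 0.17, -0.01 ± 0.05 and 0.18 ± 0.13 (SE, MSC minus vehicle). What share of the co-variation comes from the neuronal content of each sample was not tested.

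Some members followed single interneuron genes. In a look at all 216 pairs of a member with an interneuron marker, chosen after the values were seen, Vamp1 and Pvalb correlated at r of 0.85 (Spearman 0.85), 0.87 within MSC arrays, 0.82 within vehicle arrays and 0.78 without the 2 farthest arrays. As large in size was Syt7 with Vip, a gene of another interneuron class, at -0.85 (-0.58 without the 2 farthest arrays), and Napb with Gad1, which makes GABA, was at 0.81. The next members with Pvalb were Stx1a with 0.67 and Pclo with 0.63. Syt2 correlated with Pvalb at 0.45. With Sst, the somatostatin gene of a further class, Syn3 and Rab3c were at 0.80, Syn2 at 0.78, and Nsf and Synj1 at 0.76. Without the 2 farthest arrays these were 0.63, 0.62, 0.77, 0.75 and 0.85. Rab3c was at 0.69 with both Gad1 and Vip, and at -0.11 with Pvalb.

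**Figure D5:**
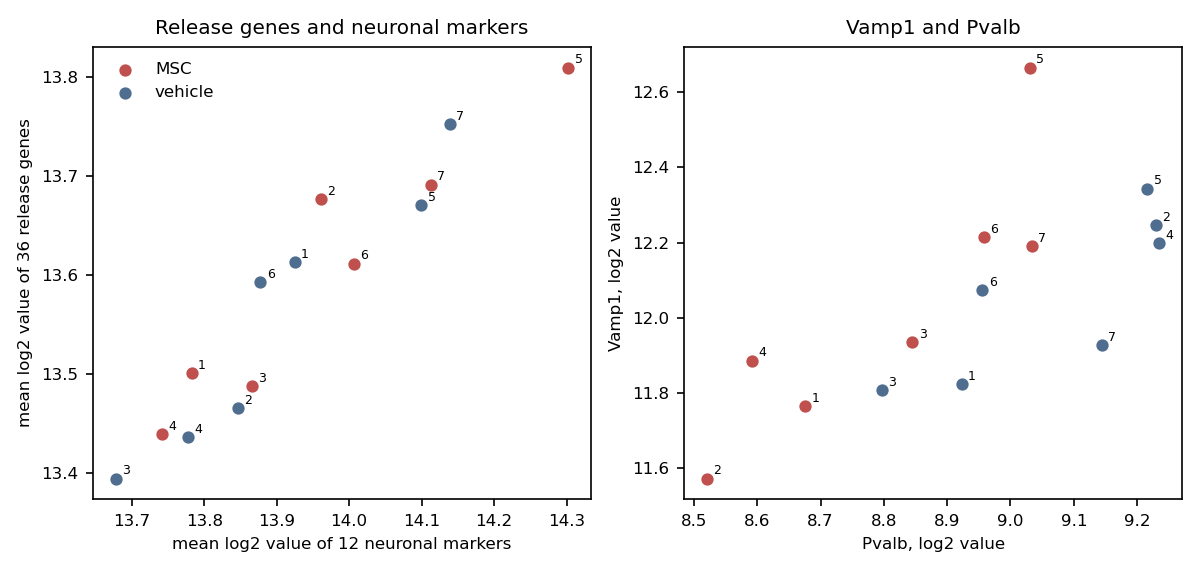
Left, mean log2 value of the 36 genes (y) against the mean of 12 neuronal markers (x) for each array, MSC and vehicle in separate colours, numbered by replicate. Right, Vamp1 (y) against Pvalb (x), both log2. Group means are kept in the plot, whereas the correlations in the text are of deviations from them. The arrays rise from left to right in both panels, with MSC replicate 5 at the top. On the right the rise is looser, and MSC replicate 5 stands above vehicle arrays of higher Pvalb.

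Of the 13856 other bright genes, the 5 closest to the mean of the 36 were Stau1 (r of 0.95), an RNA-binding protein of dendritic transport, Wsb2 (0.94), Atcay (0.93), whose product caytaxin is neuronal, Dync1i1 (0.93), a neuronal dynein chain, and Ptmal3 (0.93). The 5 most opposed were Col27a1 (-0.93), Cimip2b (-0.90), Cept1 (-0.88), Erich2 (-0.87) and B3gnt4 (-0.87). Likeness is Pearson r of deviations over 14 arrays.

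Another 72 genes of the vesicle cycle were read from a list. In limma 0 of the 72 passed the adjusted p, and at an unadjusted p of 0.05 there were 3 higher and 0 lower in MSC arrays, where 1.17% of all genes were called higher and 1.6% lower. Means were higher in 51 and lower in 21, beside 47.6% higher over all genes and 52.0% over bright genes, with a median difference of 0.06. Rimbp2, which links RIM to calcium channels at the active zone, had 10.21, 10.63 and 10.91 as lowest, median and highest value in MSC arrays and 9.74, 10.25 and 10.51 in vehicle arrays. All 7 MSC values were above the vehicle mean, with a difference of 0.38 ± 0.14 (unadjusted p of 0.0135, adjusted p of 0.9999), and it was 0.46 within replicates 1 to 5 and 0.16 within replicates 6 and 7. Sh3gl1, an endophilin of many tissues, differed by 0.17 ± 0.07 (unadjusted p of 0.0374) and Ap2b1, a clathrin adaptor subunit, by 0.18 ± 0.09 (unadjusted p of 0.0491). The smallest p-values among lower means were those of the dynamin Dnm3 (-0.11 ± 0.07, unadjusted p of 0.128), Rims3 (-0.31 ± 0.21, 0.159) and Syt10 (-0.17 ± 0.12, 0.178). Deviations of 63 of the 72 genes correlated positively with the mean of the 36, with a median r of 0.44, beside 0.17 over the other bright genes.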

How the data were processed

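Expression was measured on 14 Affymetrix whole-transcript arrays of rat motor cortex, 7 MSC and 7 vehicle, grouped by title. The authors deposited log2 values, which came from RMA run in Affymetrix's Expression Console software according to the submitters' processing notes. Software versions and the genome build were not given in the sources used here. Background is subtracted by RMA, which also equalises probe distributions across arrays and summarises each probe set. This compresses changes of dim probe sets and can hide a shift shared by most transcripts.

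Of 70580 probe sets, 1738 controls were left out. Of the 68842 tested, 23446 had 1 gene symbol, covering 22093 genes, while 505 with several symbols were not named. Through Entrez identifiers, a RefSeq table of GRCr8 changed 1 symbol. The brightest probe set stood for each gene. The MSC and vehicle arrays were compared in limma 3.58.1 (R 4.3.3) by lmFit and eBayes with all 14 arrays and no covariate, and p-values were adjusted by Benjamini-Hochberg over the whole set of 68842. Every difference is MSC minus vehicle in log2 units with its SE, and intervals are at 95%. The fit was also run on simulated probe sets with independent noise and planted shifts larger than any member difference. That run does not bear on small differences or on genes that vary together. The number of arrays limits the precision: half-widths of the 95% interval had a median of 0.23 over the 36 genes and 0.15 over all genes. No arrays held identical values. A gene is called bright when its mean is at or above 5.85, the median of the array medians.

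Co-variation was computed on deviations from group means. The 36 genes, the protein classes and the marker and pathway lists were chosen with earlier results of these data known. All 36 members are named. Of the other pathway genes the text names the 3 with the smallest unadjusted p in each direction, of the other bright genes the 5 closest to and the 5 most opposed to the members' mean, of markers 7 (Rbfox3, Map2, Mbp, Gfap, Aif1, Ttr and Drd2), and upstream windows of 5 members. Pvalb, Sst, Vip and Gad1 were named after their values were seen. Alternatives changed the normalization, filter, gene summary, eBayes setting, spike-in and replicate blocks, the label of MSC replicate 7, the replicates used and single arrays. After the data were seen, MSC replicates 4 and 6 and vehicle replicate 2 were also left out together, for their choroid plexus or striatal markers.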

Additional observations from a re-analysis of the deposited data

Results flagged for a closer look

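In 6 of the 86 sets of 7 values examined for a single array far from the rest, 1 array stood apart. About 1 in 20 such sets is marked by chance, which is 4.3 of 86. In MSC arrays these were Sv2b in MSC replicate 4, at 14.68 while the others lay between 14.95 and 15.12, Vamp2 in MSC replicate 2, at 15.44 (others 14.83 to 15.06), and Dnm1 in MSC replicate 3, at 15.97 (others 16.18 to 16.31). In vehicle arrays, Snap25 and Stx1a were both low in vehicle replicate 3, at 17.81 (others 18.12 to 18.26) and 11.70 (others 12.04 to 12.22), and Cplx2 was low in vehicle replicate 4, at 13.44 (others 13.89 to 14.24).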

How the results depend on the processing

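No member passed an adjusted p of 0.05 under any of the alternatives run. The sign of all 36 differences was kept under repeated quantile normalization and median centring. The spike-in and replicate blocks each hold as many MSC as vehicle arrays, so they could not change any difference, only its SE. The median difference over the members lay between 0.01 (without vehicle replicate 3) and 0.09 (without vehicle replicate 7) when 1 array was left out, with 22 to 28 members higher in MSC arrays. That of the synaptotagmin class lay between -0.05 and 0.04, was -0.06 with MSC replicate 7 counted as vehicle, -0.02 with 3 arrays left out, and -0.07 within replicates 6 and 7, where the vesicle membrane and SNARE classes were at -0.05 each. There, 13 members were higher in MSC arrays, 1 probe set with no name here, not a member, passed the adjusted p, and co-variation could not be computed over 4 arrays. Unadjusted p under 0.05 was reached by 1 member (Rims2) with MSC replicate 7 counted as vehicle, by 1 (Syt2) within replicates 1 to 5, and by 0 to 2 when 1 array was left out: Slc17a7 and Dnm1 without MSC replicate 3, Syt2 and Rims2 without MSC replicate 5, Vamp2 without MSC replicate 6, Stx1a without vehicle replicate 3, Slc17a7 without vehicle replicate 5, and Syp and Syt2 without vehicle replicate 7. Adjusted p stayed at 0.9994 or above in each of these. The median co-variation was 0.27 under repeated quantile normalization and 0.47 under median centring, where that over 4631 of the bright genes was 0.08 and 0.19. It was 0.32 to 0.39 when 1 array was left out.

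Replicate numbers were not taken as pairing the arrays, since the labels do not tie them and 3, not all, of 7 same-numbered pairs correlated above 0.1, while 2 of 7 MSC and 2 of 7 vehicle arrays correlated best with their own number. With the replicate block 0 members passed the adjusted p, but the median co-variation was 0.10, beside 0.04 over 4631 of the bright genes. The 25 higher means of the main fit could not change there, since each number holds an MSC and a vehicle array. In 5 of the 7 numbers the MSC and the vehicle array deviated to the same side in the mean over members. The cause was not tested.

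Signs of single differences, none of them past the threshold, turned as follows, and the cause was not tested. Within replicates 6 and 7 they were Syn1 -0.12, Syn2 -0.045, Syp -0.056, Sv2b -0.13, Rab3c -0.044, Syt1 -0.069, Syt4 0.17, Syt5 -0.18, Syt7 -0.12, Vamp1 0.20, Vamp2 -0.015, Cplx1 -0.095, Cplx2 -0.15, Napb -0.10, Unc13a -0.024, Amph 0.0049, Synj1 -0.0027 and Sh3gl2 -0.073. Within replicates 1 to 5 they were Syn3 0.048, Sv2c -0.0031, Syt11 0.019 and Doc2a -0.040. With MSC replicate 7 counted as vehicle they were Syn3 0.012, Syt1 -0.0089, Syt5 -0.022, Doc2a -0.061 and Snap91 -0.029. With 3 arrays left out for their markers they were Syn3 0.045, Sv2c -0.018, Syt7 -0.0024, Doc2a -0.078 and Bsn 0.0017, and 24 members were higher. With the mean over probe sets of a gene, Syt1 was -0.02. With 1 array left out at a time, the lowest and highest were Syt4 -0.095 and 0.044, Syt11 -0.064 and 0.029, Vamp1 -0.13 and 0.050, Cplx1 -0.049 and 0.071, Syt5 -0.041 and 0.088, Syn3 -0.14 and 0.023, Bsn -0.13 and 0.050, Amph -0.074 and 0.032, Syt7 -0.038 and 0.080, Syt1 -0.0081 and 0.043, Sv2c -0.0062 and 0.10 and Doc2a -0.055 and 0.065.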
